A study of Mus musculus with 24 samples.

Results

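B cell progenitors that lacked both PLCγ1 and PLCγ2 were compared with B cell progenitors that lacked PLCγ2 alone, so the comparison asks what changed when PLCγ1 was lost as well. It rests on the libraries whose labels give the population B cell progenitor and the genotype PLCgamma1-/-PLCgamma2-/- (n = 3, here double-deficient) or PLCgamma1+/+PLCgamma2-/- (n = 3, here PLCγ2-deficient), 6 of the 24 libraries of the series. The donor mice were adults of both sexes on a mixed 129xC57BL/6 background. All donors carried the MxCre transgene, whose Cre is driven by an interferon-inducible promoter, and a YFP reporter in the Rosa locus, and all were treated with poly(I-C). Double-deficient donors had floxed Plcg1 alleles, which Cre deletes after poly(I-C), on a constitutive deletion of Plcg2. PLCγ2-deficient donors had wild-type Plcg1 alleles on the same Plcg2 deletion. Donor marrow was transplanted into lethally irradiated CD45.1+ wild-type mice, and donor-derived B220+IgM-IL-7R+ cells were sorted from the recipients some weeks later, so n counts recipients. The number of donors is not given in the sources used here, and p-values measure the spread between these libraries.

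PLCγ enzymes split the membrane lipid PIP2 into inositol trisphosphate, which releases calcium from the endoplasmic reticulum, and diacylglycerol, which activates protein kinase C and RasGRP proteins. PLCγ2 is the main form in mature B cells, where it acts downstream of the B cell receptor, and PLCγ1 is the form best known from T cells and from growth factor receptors. Early B cell progenitors express both. They depend on IL-7, rearrange their immunoglobulin heavy chain genes with the RAG recombinase, and then signal through the pre-B cell receptor, which is made of the heavy chain, the surrogate light chain (Vpreb1, Vpreb2, Igll1) and the Cd79 chains.

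Each deposited file holds counts of reads per gene. The reads on genes numbered 2858724, 25057223 and 7478166 in double-deficient libraries 1, 2 and 3, and 2393873, 18959055 and 1479582 in PLCγ2-deficient libraries 1, 2 and 3. Reads that fell outside genes were 60.3% to 63.0% of the double-deficient libraries and 63.8% to 75.8% of the PLCγ2-deficient ones, so that this share did not overlap between the groups. At these depths 3 reads on a gene amounted to between 0.120 and 2.03 CPM, which covers counting error only. Levels are given in CPM, a gene's reads relative to all reads on genes after TMM scaling of the libraries. All 10 B progenitor markers were detected in all 6 libraries, with 153 to 471 CPM of Il7r. In both genotypes library 1 was the lowest of its group in Ebf1 and Il7r. The neutrophil marker list, 8 of 9 genes counted, summed to between 2625 and 6363 CPM in double-deficient and between 1333 and 7616 CPM in PLCγ2-deficient libraries, with Mpo at 748 to 3995 CPM. As the samples are bulk RNA, fewer cells of a type and less RNA per cell cannot be told apart.

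Plcg2 stood at 72.7, 91.2 and 111 CPM in double-deficient libraries and at 94.9, 96.5 and 79.6 CPM in PLCγ2-deficient ones. These groups overlap, and both lay below the 215 to 246 CPM of PLCgamma1+/+PLCgamma2+/+ progenitors. Plcg1 stood at 56.5, 183 and 140 CPM in double-deficient libraries and at 78.0, 115 and 108 CPM in PLCγ2-deficient ones, a log2 fold change of 0.35 (SE 0.34, edgeR adjusted p = 0.787). A count over the whole gene does not separate a transcript that lacks the deleted part from a full one, and the Plcg1 genotype was therefore taken from the labels.

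The added loss of PLCγ1 was accompanied by few called changes. Of 15001 genes tested, 23 (0.153%) were called, which means that edgeR's quasi-likelihood test gave a Benjamini-Hochberg adjusted p of 0.05 or less and that the log2 fold change was 0.5 or more in size. Of these, 8 rose (0.0533%) and 15 fell (0.1%). This balance was not stable, with 19 higher and 7 lower without double-deficient library 1, 9 and 9 with the share of reads on no gene as a covariate, and 34 and 25 with that covariate and the block for replicate numbers. An unadjusted p of at most 0.05 was reached by 523 genes that were higher and 1120 that were lower. The median log2 fold change over all genes tested was -0.03. In all 23 called genes the double-deficient libraries lay on one side of the PLCγ2-deficient ones, as they did in 13.1% of all genes tested (5.17% above and 7.97% below).

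Of the 23, 6 are sex-linked. Xist, the RNA that silences an X chromosome in female cells, stood at 1670, 2068 and 1600 CPM in double-deficient libraries against 115, 61.8 and 123 CPM in PLCγ2-deficient ones. The Y-linked gene Ddx3y stood at 8.26, 3.79 and 12.4 CPM against 171, 173 and 157 CPM. The Y-linked genes Eif2s3y, Kdm5d and Uty fell in the same way, and Tsix rose, although Tsix runs across Xist on the opposite strand, so that reads of one may be counted for the other. The loss of PLCγ1 and this difference between the donors' cells cannot be told apart, gene by gene, in the comparison. With the sex-linked genes left out, 4 genes were called (Serinc3, 0610039K10Rik, Ctse and Eps8l1), since the adjustment then counts fewer small p-values. The other 13 then had edgeR adjusted p between 0.0502 and 0.0625.

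The other 17 called genes were 11 that fell and 6 that rose. The replicate numbers were taken as pairs on the evidence of these same data, although the labels do not say what they share. With the number as a block in the fit 46 genes were called (0.307%), 17 higher (0.113%) and 29 lower (0.193%), and all 23 were among them. With the block and without the sex-linked genes 29 were called, and all 17 were among these.

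**Figure D1:**
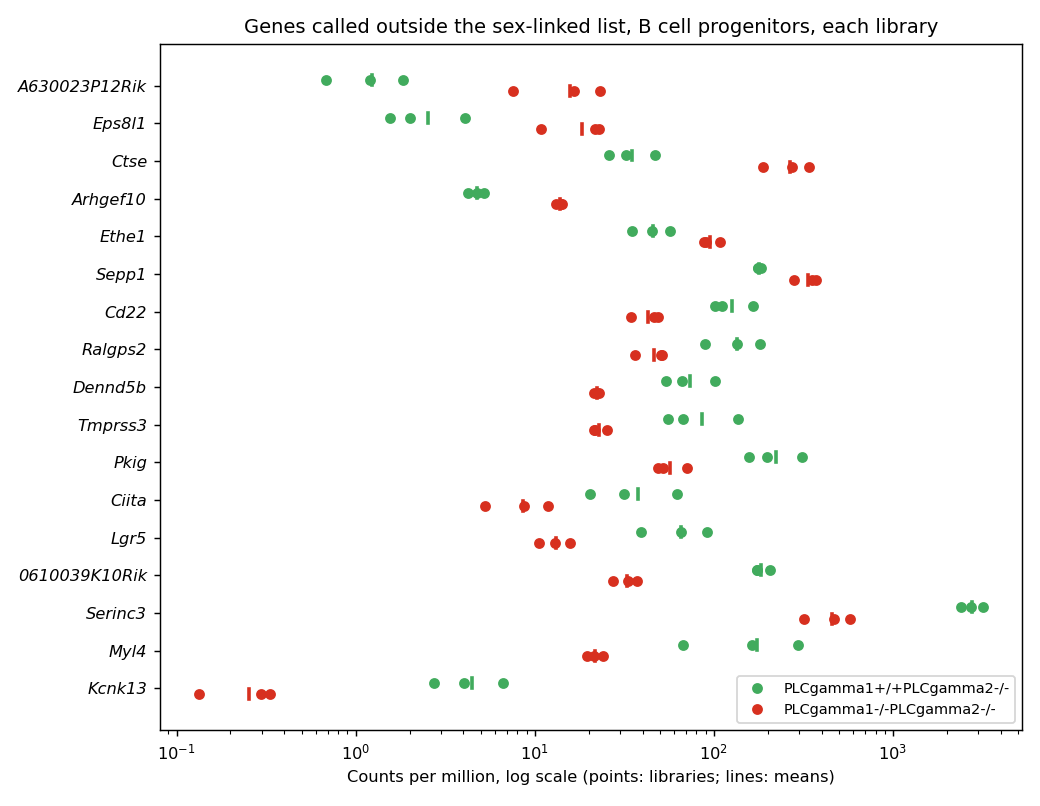
Normalized CPM on a log axis for the 17 called genes outside the sex-linked list, ordered by log2 fold change, with 1 point for each library and a line for the mean of the 3 libraries of each genotype. In each gene all red points (PLCgamma1-/-PLCgamma2-/-) lie on one side of all green points (PLCgamma1+/+PLCgamma2-/-).

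Genes that B cells use at later stages were among those that fell. Cd22 encodes a sialic acid-binding receptor that dampens B cell receptor signals. It stood at 46.3, 34.4 and 48.9 CPM in double-deficient libraries and at 102, 165 and 111 CPM in PLCγ2-deficient ones, a log2 fold change of -1.56 (SE 0.24, edgeR adjusted p = 0.0294). Ciita encodes the transactivator that switches on the MHC class II genes. It fell from 31.4, 61.9 and 20.4 CPM to 11.9, 5.27 and 8.67 CPM, a log2 fold change of -2.29 (SE 0.37, edgeR adjusted p = 0.0405). PLCγ2-deficient library 2, the deepest of its group, was the highest of that group in both genes. The double-deficient libraries were below the lowest of that group. Library 2 was also the highest PLCγ2-deficient library in each of the other falls outside the sex-linked list. Among the genes that rose outside that list it was the lowest in Ctse, Eps8l1, Arhgef10, Ethe1 and Sepp1, and the highest in A630023P12Rik.

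Of the remaining falls, Lgr5 encodes a receptor for R-spondins that is best known from stem cells of the gut. It stood at 10.6, 15.8 and 12.9 CPM in double-deficient libraries and at 39.4, 91.7 and 65.3 CPM in PLCγ2-deficient ones, a log2 fold change of -2.31 (SE 0.36, edgeR adjusted p = 0.0315). Myl4, which encodes a myosin light chain of atrial and embryonic muscle, fell from 67.2, 295 and 164 CPM to 19.5, 24.1 and 21.5 CPM, a log2 fold change of -3.02 (SE 0.51, edgeR adjusted p = 0.0432). In Myl4 the double-deficient libraries were close to each other while the PLCγ2-deficient ones varied widely. Tmprss3, a membrane serine protease, Dennd5b, a DENN-domain protein, and Ralgps2, an exchange factor for the GTPase Ral, fell by 1.94, 1.75 and 1.58 on the log2 scale, and their double-deficient libraries lay at 21.5 to 25.4, 21.5 to 22.9 and 36.4 to 51.5 CPM. Kcnk13, a potassium channel, had the lowest log2 fold change of the 11 at -4.15 (SE 0.64, edgeR adjusted p = 0.0315), on few reads, with 1, 7 and 1 in double-deficient and 10, 123 and 4 in PLCγ2-deficient libraries.

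The genes that rose were Ctse, Eps8l1, A630023P12Rik, Arhgef10, Ethe1 and Sepp1. Ctse encodes the aspartic protease cathepsin E. It stood at 187, 340 and 272 CPM in double-deficient libraries and at 32.2, 25.9 and 47.0 CPM in PLCγ2-deficient ones, a 7.90-fold rise with a log2 fold change of 2.98 (SE 0.37, edgeR adjusted p = 0.00596). Eps8l1, a relative of the actin regulator Eps8, rose from 2.01, 1.56 and 4.08 CPM to 10.9, 22.9 and 21.6 CPM, a log2 fold change of 3.17 (SE 0.40, edgeR adjusted p = 0.00668). The lowest double-deficient library of Eps8l1 was still above the highest PLCγ2-deficient one. The unnamed transcript A630023P12Rik had a log2 fold change of 3.45 (SE 0.56, edgeR adjusted p = 0.0388), on 3, 34 and 1 reads in PLCγ2-deficient libraries. Arhgef10, a guanine nucleotide exchange factor, rose from between 4.25 and 5.23 CPM to between 13.2 and 14.3 CPM, a log2 fold change of 1.57. Ethe1, a mitochondrial sulfur dioxygenase, and Sepp1, which encodes selenoprotein P, had log2 fold changes of 1.09 and 0.91. Ethe1 lay at 87.7 to 108 CPM against 34.9 to 57.2 CPM and Sepp1 at 282 to 373 CPM against 176 to 183 CPM.

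The number of calls varied with the libraries and the tool. The count of called genes was 10 without double-deficient library 2, 10 without library 3, and 8 without PLCγ2-deficient library 2, while DESeq2 called 161 genes (1.07%), 59 higher (0.393%) and 102 lower (0.68%). With the share of reads on no gene as a covariate 18 genes were called, and 14 of the 23 were among them, not Cd22 (edgeR adjusted p = 0.0751) or Ciita (edgeR adjusted p = 0.123).

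Serinc3, 0610039K10Rik and Pkig, which are neighbours on chromosome 2, all fell. Serinc3 encodes a membrane protein known to be taken up into retroviral particles and to lower their infectivity. It stood at 470, 320 and 574 CPM in double-deficient libraries and at 2405, 3196 and 2731 CPM in PLCγ2-deficient ones, a 6.11-fold fall with a log2 fold change of -2.61 (SE 0.21, edgeR adjusted p = 0.000123). The transcript 0610039K10Rik stood at 33.1, 27.5 and 37.2 CPM against 175, 205 and 174 CPM, a log2 fold change of -2.51 (SE 0.17, edgeR adjusted p = 4.49e-05). Pkig encodes an inhibitor of protein kinase A. It stood at 48.9, 52.1 and 70.5 CPM against 158, 310 and 197 CPM, a log2 fold change of -1.96 (SE 0.29, edgeR adjusted p = 0.0294). Serinc3 and 0610039K10Rik were called in all 18 alternatives of the comparison, Pkig in 11 of them.

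In GRCm38 Serinc3 lies at chr2:163623273-163645149, 0610039K10Rik at chr2:163644850-163645800 and Pkig at chr2:163658211-163726158. The 0610039K10Rik transcript runs against Serinc3 and shares 300 bases with its start, and the library kit did not mark strand, so reads in that overlap cannot be assigned. The 3 genes lie 2.85 to 2.88 Mb from Plcg1, the deleted gene, at chr2:160731310-160775760. These 3 were the genes called near Plcg1, just inside a window of 3 Mb, with 0 of 8 other genes called within 2 Mb, 3 of 31 within 3 Mb, 3 of 98 within 5 Mb and 3 of 296 within 20 Mb, against 0.153% of all genes tested. The genes on either side, neither of them called, went the other way. Ttpal had a log2 fold change of 1.13 (SE 0.34, edgeR adjusted p = 0.333) and Ada, which encodes adenosine deaminase, one of 0.73 (SE 0.44, edgeR adjusted p = 0.581). Around Plcg2 edgeR called 0 of 21 other genes within 2 Mb and 0 of 31 within 3 Mb. It called 0 of 60 within 5 Mb and 0 of 245 within 20 Mb. DESeq2 called 2 of these 245, Ces2h and Gm38416, both lower and on few reads. Within 20 Mb of Plcg1 it called 7 of 296, of which only Serinc3, 0610039K10Rik and Pkig were lower. Of all genes tested DESeq2 called 1.07%.

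**Figure D2:**
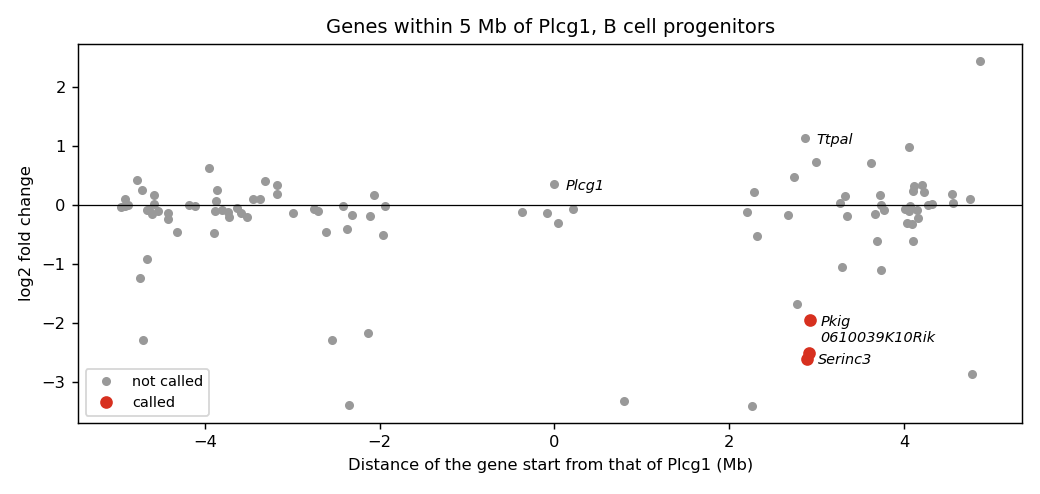
Log2 fold change of each tested gene whose position lies within 5 Mb of Plcg1, against the distance of its start from that of Plcg1 in Mb, with called genes in red. Serinc3, 0610039K10Rik and Pkig lie together near 2.9 Mb at log2 fold changes of -2.61, -2.51 and -1.96, beside Ttpal at 1.13.

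Promoters, 250 bases before to 50 after a gene's start, were read from RefSeq in GRCm38.p6 for 13 of the 17 genes (not Ctse, Ciita, Lgr5 and Arhgef10), which have 22 start sites in all. They were searched on both strands for the motifs of EBF1 (TCCC and GGGA, 2 bases apart), E2A (the E-box CAGGTG), AP-1 (TGANTCA), NF-κB (GGGA and TTCC, 2 bases apart) and the ETS-IRF composite (GGAA and GAAA, 2 bases apart). The E-box was present in 11 of the 22 promoters, some of which overlap, against 20.21% of the 32851 promoters searched. By gene, 8 of the 13 had it at any of their start sites, and the share of single promoters is not a measure for that count. The EBF1 motif was present in 1 of the 22, that of Cd22, against 0.9% of all. The other motifs had no match, and they occur in 7.81%, 1.47% and 2.72% of all promoters. The promoters of the neighbours Serinc3 (chr2:163645094-163645393, minus strand) and Pkig (chr2:163658136-163658435, plus strand, the first of its 3 start sites) are shown because these genes fell together, and that of Cd22 (chr7:30878979-30879278, minus strand) because it holds the EBF1 motif, with matches to any of the motifs in capitals.
Serinc3: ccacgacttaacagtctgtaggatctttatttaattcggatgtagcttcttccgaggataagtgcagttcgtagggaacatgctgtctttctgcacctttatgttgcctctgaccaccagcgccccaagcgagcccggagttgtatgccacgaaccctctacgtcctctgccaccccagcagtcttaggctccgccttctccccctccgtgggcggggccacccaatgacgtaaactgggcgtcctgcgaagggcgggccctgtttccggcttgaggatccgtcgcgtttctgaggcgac
Pkig: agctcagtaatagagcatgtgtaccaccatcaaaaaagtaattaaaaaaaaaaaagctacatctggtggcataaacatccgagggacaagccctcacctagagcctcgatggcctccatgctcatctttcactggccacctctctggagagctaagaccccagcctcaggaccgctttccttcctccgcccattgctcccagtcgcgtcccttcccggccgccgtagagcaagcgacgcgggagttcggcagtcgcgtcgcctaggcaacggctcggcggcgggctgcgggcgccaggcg
Cd22: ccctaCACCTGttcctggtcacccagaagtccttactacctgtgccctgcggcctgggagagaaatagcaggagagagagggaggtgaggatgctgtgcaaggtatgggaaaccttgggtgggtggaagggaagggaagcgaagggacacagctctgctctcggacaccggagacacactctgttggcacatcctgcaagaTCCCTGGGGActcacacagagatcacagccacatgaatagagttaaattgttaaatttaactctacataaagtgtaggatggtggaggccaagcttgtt
Those of Serinc3 and Pkig hold none of the motifs. Of the capitals in the Cd22 promoter, the first run is an E-box on the other strand and the second is the EBF1 motif. A match is a description of the letters in this window and not a measured site.

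The same loss of PLCγ1 was also measured with PLCγ2 present, as PLCgamma1-/-PLCgamma2+/+ (n = 3) against PLCgamma1+/+PLCgamma2+/+ (n = 3) progenitors, where 9 of the 15001 genes were called (0.06%), 5 higher (0.0333%) and 4 lower (0.0267%). These libraries share none with the comparison above and differed in the sex-linked genes in the same way. Reads outside genes were 66.5% to 87.3% of the PLCgamma1-/-PLCgamma2+/+ libraries and 59.9% to 71.4% of the PLCgamma1+/+PLCgamma2+/+ ones. Serinc3 stood at 1320, 1664 and 1373 CPM in PLCgamma1-/-PLCgamma2+/+ libraries and at 1766, 1921 and 1692 CPM in wild-type ones, a log2 fold change of -0.30 (SE 0.20, edgeR adjusted p = 0.485). The log2 fold change of Serinc3 on loss of PLCγ1 was more negative without PLCγ2 than with it, a difference of -2.31 (SE 0.29, edgeR adjusted p = 0.0244). For 0610039K10Rik the difference was -2.02 (SE 0.22, edgeR adjusted p = 0.0138). For Pkig, with log2 fold changes of -1.96 and -0.47, it did not pass the test (edgeR adjusted p = 0.187). The PLCγ2-deficient libraries themselves lay above the wild-type ones in Serinc3, at 2405 to 3196 CPM. They did so in 0610039K10Rik as well, at 174 to 205 against 106 to 139 CPM, while in Pkig these groups overlap. The floxed Plcg1 allele is shared by the PLCgamma1-/-PLCgamma2+/+ and the double-deficient donors. Whether the chromosome around it was the same in both is not given in the sources used here, and its part in these falls was not tested.

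The effect of PLCγ1 loss on Eps8l1 also differed between PLCγ2 genotypes. It stood at 23.2, 18.3 and 17.6 CPM in wild-type libraries, at 10.6, 11.8 and 17.02 CPM on loss of PLCγ1, at 2.01, 1.56 and 4.08 CPM on loss of PLCγ2, and at 10.9, 22.9 and 21.6 CPM on loss of both. The PLCγ2-deficient libraries were below all other B progenitor libraries, and the double-deficient ones overlapped with the wild-type ones. The log2 fold change on loss of PLCγ1 was 3.17 without PLCγ2 and -0.58 with it (SE 0.32, edgeR adjusted p = 0.468 for the latter), a difference of 3.75 (SE 0.51, edgeR adjusted p = 0.0342). The difference between PLCγ2 genotypes was called at 4 genes (0.0267%), 1 higher (0.00667%) and 3 lower (0.02%), namely Serinc3, 0610039K10Rik, Eps8l1 and Mmp14, a membrane metalloprotease, at -3.65 (SE 0.49, edgeR adjusted p = 0.0342). With 1 library left out it was called at 0 to 5 genes, at 0 of them without PLCγ2-deficient library 2, PLCgamma1-/-PLCgamma2+/+ library 1 or 3, or wild-type library 2 or 3, and by DESeq2 at 642.

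Ctse was called with PLCγ2 present as well, at 173, 166 and 209 CPM against 20.5, 32.1 and 58.8 CPM, a log2 fold change of 2.29 (edgeR adjusted p = 0.0470). The difference between its log2 fold changes, 0.69 (SE 0.49), did not pass the test (edgeR adjusted p = 0.588). Of the 17 genes, Ctse alone was called in both. Ciita had a log2 fold change of 0.00 and Cd22 one of -0.26 on loss of PLCγ1 with PLCγ2 present, and in neither did the difference pass the test (edgeR adjusted p = 0.187 each).

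**Figure D3:**
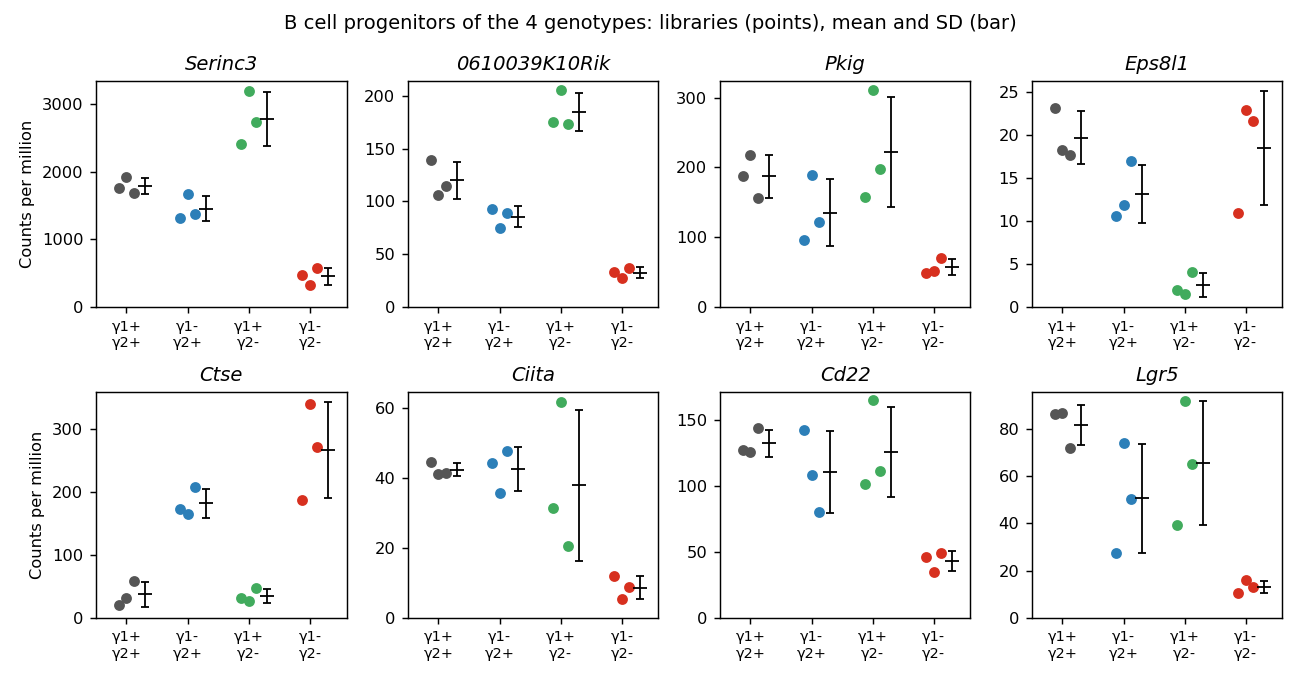
Normalized CPM in B cell progenitors of the 4 genotypes for 8 called genes, with 1 point per library and a bar for the mean and SD of 3 libraries, and with PLCγ1 and PLCγ2 marked present (+) or absent (-) on the x axis. Serinc3, 0610039K10Rik and Pkig were lowest in the double-deficient libraries, Ctse was higher in both genotypes without PLCγ1, and Eps8l1 was lowest in the libraries without PLCγ2 alone.

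The same contrast was made in CLPs, the common lymphoid progenitors that were sorted as Lin-IL-7R+ cells from transplant recipients (3 double-deficient and 3 PLCγ2-deficient libraries). Each CLP library shares the identifier that opens its title with 1 B cell progenitor library of the same genotype, and this identifier was taken as the mouse, which the labels do not spell out. There 8 of 15209 genes were called (0.0526%), 5 higher (0.0329%) and 3 lower (0.0197%), among them Serinc3 and A630023P12Rik of the 17. The Y-linked genes Eif2s3y and Ddx3y were also called, at log2 fold changes of -4.77 and -4.83. Xist, which was not called, stood at 2028, 1622 and 1382 CPM in double-deficient and at 239, 114 and 741 CPM in PLCγ2-deficient CLPs. PLCγ2-deficient CLP library 3 thus held 741 CPM of Xist beside 98.0 CPM of Ddx3y. The loss of PLCγ1 and the difference in sex-linked genes between the donors' cells cannot be told apart in CLPs either. As the CLP and B cell progenitor libraries were taken to come from the same mice, the populations are not independent. Serinc3 stood at 429, 261 and 287 CPM in double-deficient CLPs and at 1978, 2073 and 1737 CPM in PLCγ2-deficient CLPs, a log2 fold change of -2.57 (SE 0.20, edgeR adjusted p = 0.000558). A630023P12Rik had a log2 fold change of 3.37 (SE 0.50, edgeR adjusted p = 0.0492). Myl4 had log2 fold changes of -3.02 in B cell progenitors and -2.65 in CLPs, and Ciita -2.29 and -1.99, but neither was called in CLPs (edgeR adjusted p = 0.402 and 0.454). Only 1 gene was called in CLPs when any 1 library other than double-deficient library 1 was left out. A difference between the populations, with this identifier as a block, was called by edgeR at 0 of 17212 genes, with 651 at an unadjusted p of at most 0.05, and by DESeq2 with the same block at 1. Reads outside genes were 17.9% to 23.5% of double-deficient and 25.9% to 45.2% of PLCγ2-deficient CLP libraries. These shares are below those of the B cell progenitor libraries, and their part in this result was not tested.

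**Figure D4:**
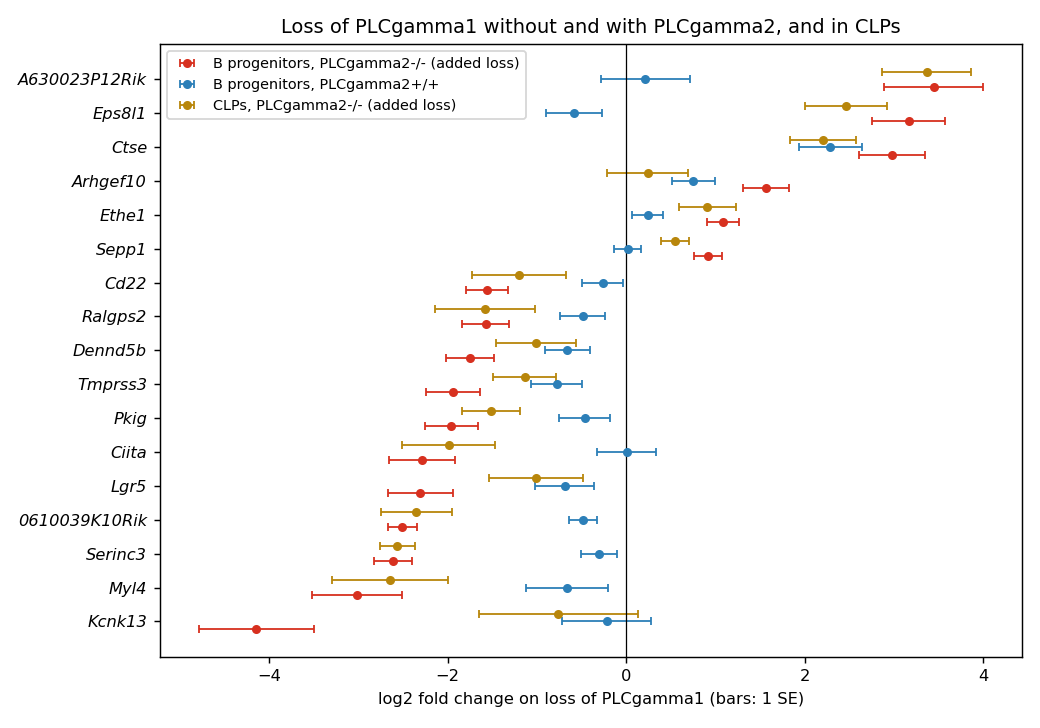
Log2 fold change on loss of PLCγ1, with bars of 1 SE, for the 17 called genes in B cell progenitors without PLCγ2 (red), in B cell progenitors with PLCγ2 (blue) and in CLPs without PLCγ2 (gold). Serinc3 lies at -2.61, -0.30 and -2.57 and Ctse at 2.98, 2.29 and 2.21 in these comparisons.

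Genes of the pathway and of B cell development were described by list. The lists were chosen with earlier results of these data known, so the shares of all genes beside them are no test of a list. Here and below, counts of list members at an unadjusted p of at most 0.05 stand against 7.47% lower and 3.49% higher of all genes tested. The surface molecules of later B cell stages were lower in most members. Of 18 tested, Cd22 was called, 10 were lower and 0 higher at an unadjusted p of at most 0.05, against 7.47% and 3.49% of all genes tested. In 8 of the 18 the double-deficient libraries lay below all PLCγ2-deficient ones, against 7.97% of all genes tested, and the median log2 fold change was -1.07. Cd24a, the heat-stable antigen of B cell progenitors, stood at 603, 842 and 899 CPM against 1079, 2418 and 1735 CPM, a log2 fold change of -1.16 (SE 0.31, edgeR adjusted p = 0.294). Fcrla, an Fc receptor-like protein of B cells, had a log2 fold change of -2.34 (edgeR adjusted p = 0.109). Il2ra, the CD25 chain of the IL-2 receptor and a marker of pre-B cells, had one of -2.16 (edgeR adjusted p = 0.186). DESeq2 called these 3 and Cd22.

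The MHC class II list had a median log2 fold change of -1.12 over its 10 members. Ciita was called, and 6 members were lower and 1 was higher at an unadjusted p of at most 0.05, against 7.47% and 3.49% of all genes tested. The double-deficient libraries lay below all PLCγ2-deficient ones in 6 members and above them in 1, against 7.97% and 5.17% of all genes tested. H2-Ab1, a chain of the class II molecule itself, stood at 121, 94.8 and 121 CPM in double-deficient and at 183, 261 and 229 CPM in PLCγ2-deficient libraries, a log2 fold change of -1.01 (SE 0.19, edgeR adjusted p = 0.0998). With the replicate block it was called (edgeR adjusted p = 0.0385). The member that was higher was H2-Oa, a chain of the peptide-loading inhibitor H2-O, at 0.91 (edgeR adjusted p = 0.311). Markers of conventional dendritic cells, which also carry class II molecules, summed to 85.8 to 193 CPM in double-deficient and 59.1 to 132 CPM in PLCγ2-deficient libraries, and their part in this list was not tested.

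Of 25 lymphoid and B lineage transcription factors, 0 were called by edgeR without the block, and the median log2 fold change was -0.22. At an unadjusted p of at most 0.05, 7 were lower and 2 higher, against 7.47% and 3.49% of all genes tested. With the block 2 fell. Bach2, a transcriptional repressor, stood at 106, 165 and 160 CPM in double-deficient and at 270, 697 and 367 CPM in PLCγ2-deficient libraries, with a blocked log2 fold change of -1.57 (SE 0.24, edgeR adjusted p = 0.0214). Irf4, which acts downstream of the pre-B cell receptor, stood at 72.4, 114 and 148 CPM against 156, 553 and 369 CPM, with a blocked log2 fold change of -1.60 (SE 0.25, edgeR adjusted p = 0.0248). DESeq2 called both and Ikzf3, the factor Aiolos, which had a log2 fold change of -1.52 (edgeR adjusted p = 0.225). Ebf1, Pax5 and Tcf3, which specify the lineage, were not called in any of these 3 fits.

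Components of the pre-B cell receptor and its proximal kinases had 9 positive and 5 negative log2 fold changes, with a median of 0.22 and 0 of 14 called by edgeR with or without the block. Vpreb1 stood at 223, 669 and 530 CPM against 77.6, 227 and 269 CPM, a log2 fold change of 1.32 (SE 0.54, edgeR adjusted p = 0.413). Vpreb2 had one of 1.84 (edgeR adjusted p = 0.357), and the Src-family kinase Blk one of -1.27 (edgeR adjusted p = 0.179, called by DESeq2). At an unadjusted p of at most 0.05, 3 members were higher and 3 lower, against 3.49% and 7.47% of all genes tested. Among 12 V(D)J recombination genes 0 were called by edgeR in either fit, with 1 higher and 1 lower at an unadjusted p of at most 0.05. Polm, a polymerase of end joining, stood at 19.8, 10.2 and 24.7 CPM against 63.1, 141 and 48.3 CPM, a log2 fold change of -2.28 (SE 0.40, edgeR adjusted p = 0.0595, called by DESeq2). Dntt, the polymerase that adds bases without a template, stood at 245, 2117 and 1151 CPM against 117, 158 and 588 CPM, a log2 fold change of 2.04 (SE 0.77, edgeR adjusted p = 0.391), and its groups overlap.

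**Figure D5:**
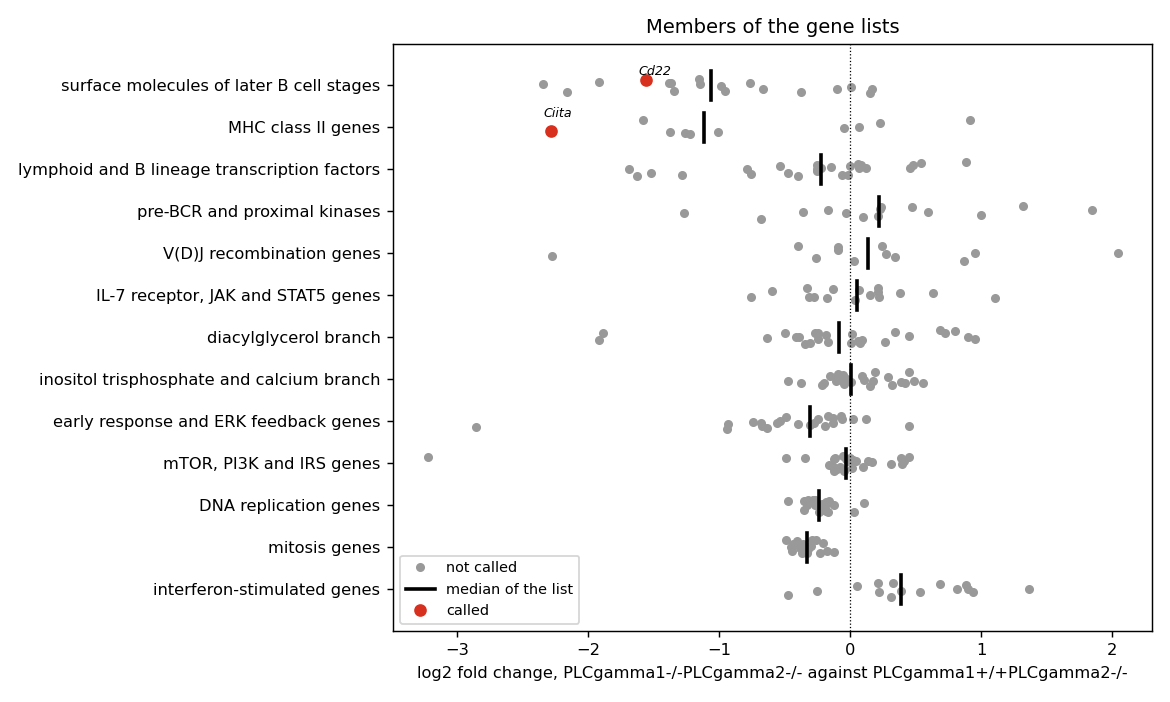
Log2 fold changes, double-deficient against PLCγ2-deficient B cell progenitors, of the tested members of 13 gene lists, with 1 point per gene and a line at the median of each list. Called members, Cd22 and Ciita, are in red, and the medians of their lists lie at -1.07 and -1.12, while all members of the mitosis list lie between -0.49 and -0.13.

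The branches below PLCγ had 0 calls by edgeR without the block. Of 26 genes of the diacylglycerol branch 0 were called by edgeR with or without the block, and the median log2 fold change was -0.08. At an unadjusted p of at most 0.05, 4 were higher and 1 lower, against 3.49% and 7.47% of all genes tested. Rasgrp1, a diacylglycerol-regulated activator of Ras, stood at 16.5, 2.93 and 14.9 CPM in double-deficient and at 51.1, 39.1 and 25.9 CPM in PLCγ2-deficient libraries, a log2 fold change of -1.88 (SE 0.50, edgeR adjusted p = 0.297, called by DESeq2). Its relative Rasgrp2 had one of 0.72 (edgeR adjusted p = 0.330, called by DESeq2). Of 25 genes of the inositol trisphosphate and calcium branch 0 were called by edgeR or DESeq2, and 1, the calcium channel subunit Orai2 at 0.49, passed an unadjusted p of 0.05. The 10 other phospholipase C genes tested and the 14 NF-κB genes had 0 calls by either tool, with 1 lower gene each at that p. Of these, Rel had a log2 fold change of -0.73 (edgeR adjusted p = 0.413). The early response and ERK feedback list had 0 of 23 called by edgeR without the block and by DESeq2, 2 lower at that p, and a median of -0.31. With the block its member Jund, an AP-1 subunit, fell by 0.98 on the log2 scale (edgeR adjusted p = 0.0447).

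IL-7 receptor, JAK and STAT5 genes had a median log2 fold change of 0.05, with 0 of 16 called by edgeR or DESeq2 and 1 in each direction at an unadjusted p of at most 0.05. These were Pim2, at 15.5, 14.4 and 13.7 CPM in double-deficient and 20.9, 25.8 and 17.7 CPM in PLCγ2-deficient libraries, and Jak3. Jak3 stood at 78.0, 144 and 101 CPM against 64.8, 65.5 and 80.3 CPM. Socs1 stood at 8.93, 9.02 and 16.1 CPM against 12.1, 19.5 and 27.2 CPM. Cish, a STAT5 target that inhibits cytokine receptors, stood at 10.6, 27.8 and 31.2 CPM against 6.03, 8.45 and 21.1 CPM. The groups overlap in Jak3, Socs1 and Cish but not in Pim2. Of 27 mTOR, PI3K and IRS genes 0 were called by edgeR, with 1 higher and 2 lower at that p. Irs1, an insulin receptor substrate, stood at 0.992, 0.510 and 0.133 CPM against 2.01, 7.16 and 3.40 CPM, a log2 fold change of -3.23 (SE 0.74, edgeR adjusted p = 0.182, called by DESeq2) on few reads. Mitosis genes were lower in all 21 members, with a median of -0.33 and 0 at an unadjusted p of at most 0.05. DNA replication genes had a median of -0.24, with 2 of 22 lower at that p. Neither list had a call by edgeR or DESeq2.

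Plasmacytoid dendritic cells also carry B220, and their 8 markers had positive log2 fold changes throughout, with a median of 0.89. Of these, 0 were called by edgeR without the block and by DESeq2. At an unadjusted p of at most 0.05, 5 were higher and 0 lower, against 3.49% and 7.47% of all genes tested. Siglech stood at 163, 62.9 and 131 CPM in double-deficient and at 72.8, 47.3 and 74.2 CPM in PLCγ2-deficient libraries, and with the block Bst2 rose (edgeR adjusted p = 0.0447). The 8 markers summed to 1204 to 1597 CPM in double-deficient and to 979 to 1263 CPM in PLCγ2-deficient libraries. Of these, Irf8 stood at 501 to 829 and 497 to 827 CPM, and Tcf4 at 323 to 509 and 223 to 361 CPM. Both are also on the list of lymphoid and B lineage transcription factors. The macrophage list had 7 positive and 2 negative log2 fold changes, and it summed to 127 to 311 CPM and 103 to 322 CPM. Its member C1qa stood at 14.9, 6.93 and 10.1 CPM against 3.62, 4.68 and 4.08 CPM. Mertk went the other way, at 1.32, 0.936 and 0.533 CPM against 1.61, 3.61 and 3.40 CPM. Hbb-b1 and Hba-a1 of the erythroid list are listed at 0 in all 6 libraries, and the part of these cell types in the calls was not tested.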

How the data were processed

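RNA of sorted B cell progenitors and CLPs was sequenced from poly(A)-selected, unstranded libraries. The authors' alignment used STAR 2.5.0a and mm10 (per the labels), and they deposited raw counts for 24421 gene symbols in each library. The 2 closing lines of a file, for reads outside genes and for ambiguous ones, entered neither library sizes nor tests. The program that counted the reads is not given in the sources used here. Groups and replicate numbers came from the labels. The counts of all 12 B progenitor libraries were fitted with edgeR 4.0.16 in R 4.3.3 (TMM, filterByExpr by genotype, glmQLFit, glmQLFTest) without covariates, after a test of the scripts on simulated counts. The authors used DESeq2 (here 1.42.0), which was an alternative. SE were derived from the F statistic. The same contrast in 12 CLP libraries, the difference between PLCγ2 genotypes, and the difference between populations in all 24 libraries with the identifier that opens the titles, taken as the mouse, as a block were tested likewise. Alternatives were the scaling, the filter, the tool, the libraries fitted, depth, a covariate, the block and leaving out 1 library, with 3 combinations with the block added after seeing the data. Deviations from the group means correlated at 0.314, 0.260 and 0.207 between same-numbered double-deficient and PLCγ2-deficient libraries, and at 0.102 or less between others. The numbers were therefore taken as pairs on the evidence of these data, since the labels do not say what they share. Within groups, any 2 libraries had a chi-square divided by its degrees of freedom of at least 8.28, so none was a copy.

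Named genes were Plcg1 and Plcg2, every called gene, the sex-linked genes, the 5 largest rises and falls called by DESeq2 alone without overlap, and up to 4 members with the smallest p per list. Jund, Bach2, Irf4, H2-Ab1, Bst2 and other genes called with the block alone, and Mmp14, Ttpal, Ada and Ebf1, were named after their values were seen. The members of the comparison and the gene lists were chosen with earlier results of these data known. Positions and promoters are from RefSeq, GRCm38.p6, and 14958 of the 15001 tested symbols had one position.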

Additional observations from a re-analysis of the deposited data

Results flagged for a closer look

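In B cell progenitors the log2 effect of PLCγ1 loss differed between PLCγ2 genotypes, by the interaction term of edgeR's fit, at 3 of the genes called in the comparison. For Serinc3 the effect without PLCγ2 minus that with it was -2.31 (SE 0.29, edgeR adjusted p = 0.0244), with log2 fold changes of -2.61 and -0.30. For 0610039K10Rik, whose start overlaps that of Serinc3, this difference was -2.02 (SE 0.22, edgeR adjusted p = 0.0138), with log2 fold changes of -2.51 and -0.49. For Eps8l1 it was 3.75 (SE 0.51, edgeR adjusted p = 0.0342), with log2 fold changes of 3.17 and -0.58. The PLCγ2-deficient libraries, at 1.56 to 4.08 CPM of Eps8l1, were the lowest of the 4 genotypes. Groups of 3 were not searched for outlying libraries.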

How the results depend on the processing

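The 23 called genes kept their sign in each alternative in which they were tested, and their calls did not. Against 23, the count was 161 with DESeq2, 46 with the replicate block, 7 with edgeR and 78 with DESeq2 on the 6 libraries alone, 7 with counts thinned to the smallest library and 4 without sex-linked genes. With alternatives added after seeing the data it was 59 with the block and the share of reads on no gene (34 higher, 25 lower) and 9 with the block and thinned counts. RLE factors, no filter, adjusted p alone and the covariate gave 22, 25, 23 and 18. Leaving out 1 library gave 8 to 26, and without double-deficient library 1 the split was 19 higher and 7 lower. In CLPs the count of 8 became 13 with no filter, 104 with DESeq2, 26 with the replicate block, and 1 to 18 without 1 library, with 18 without double-deficient library 1 and 1 without any of the other 5. The difference between PLCγ2 genotypes went from 4 to 642 with DESeq2, 605 of them lower, to 3 with the replicate block, and to 0 to 5 without 1 library. The difference between populations went from 0 to 1 with DESeq2, and it was 0 without the block for the title identifier, with RLE factors and with no filter. Without a filter the median of all genes moved to -0.18, and the share on no gene as a covariate changed the split from 8 higher and 15 lower to 9 and 9. Groups left with 2 libraries shared 1 estimate of the spread with the other groups. The cause of these shifts was not tested, and the depth of the 3 smallest libraries limits calls of genes with few reads.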

Other observations

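With a block for the replicate number 23 further genes were called by edgeR, 9 higher and 14 lower, and DESeq2 without the block called 17 of these. Besides Bach2, Irf4 and H2-Ab1 they include Emp1, an epithelial membrane protein, at 109, 284 and 230 CPM in double-deficient and 10.9, 18.8 and 77.6 CPM in PLCγ2-deficient libraries, with a blocked log2 fold change of 2.85 (edgeR adjusted p = 0.0214). Dtx1, a target and regulator of Notch signals, stood at 1.65, 0.893 and 0.400 CPM against 5.23, 5.38 and 5.44 CPM, with a blocked log2 fold change of -2.57 (edgeR adjusted p = 0.0313). Rasl10a, a Ras-like GTPase, stood at 0.331, 1.62 and 0.800 CPM against 5.63, 9.95 and 7.49 CPM, with a blocked log2 fold change of -3.02 (edgeR adjusted p = 0.0214). Abcg2, a drug efflux pump of progenitor cells, stood at 32.4, 27.0 and 34.7 CPM against 15.3, 11.6 and 18.4 CPM, with a blocked log2 fold change of 1.10 (edgeR adjusted p = 0.0214). In Dtx1, Rasl10a, Abcg2 and Emp1 the libraries of both genotypes did not overlap, as in 13.1% of all genes tested.

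DESeq2 called 138 genes that edgeR did not, and in 133 of them the libraries did not overlap, 49 higher and 84 lower. The lowest log2 fold changes among these were of Rdh16, 4930447M23Rik, Ces2h, Gm38416 and 4921511C10Rik, which had 0 reads in all double-deficient libraries. Against a floor of 3 reads over that group they were at least 24.8-fold, 21.7-fold, 26.9-fold, 21.2-fold and 14.5-fold lower, on 48, 42, 52, 41 and 28 reads in the PLCγ2-deficient libraries, of which library 2 held 78.6% to 90.4%. That library also had the largest share of reads on no gene of the 6, and its part in these calls was not tested. The highest were of Hebp1, Fcrl6, Mmrn1, Eya2 and Emp1. Fcrl6, an Fc receptor-like protein, stood at 10.6, 33.6 and 21.7 CPM against 2.82, 5.54 and 4.76 CPM (edgeR adjusted p = 0.221), and it was called in CLPs (edgeR adjusted p = 0.0467). Of 15 interferon-stimulated genes, 13 had a positive log2 fold change, and the median of the list was 0.39. The double-deficient libraries lay above all PLCγ2-deficient ones in 5 and below them in 0, against 5.17% and 7.97% of all genes tested. Of the 15, 0 were called by edgeR or DESeq2, and 2 were higher at an unadjusted p of at most 0.05. Homing and adhesion receptors had 0 of 13 called by edgeR, 1 lower at that p, and a log2 fold change of -1.23 for Ccr7 (edgeR adjusted p = 0.181, called by DESeq2). Dtx1 was the only one of 9 Notch genes at that p, and Slc2a1, a glucose transporter, the only one of 14 glycolysis genes tested, at -0.59. Survival and death genes had 0 of 17 called by edgeR or DESeq2, with Casp4 at 0.95 and Casp1 at 0.56 as the 2 at that p. Among marker lists of other cell types, T cell markers summed to 81.9 to 145 CPM in double-deficient and 60.4 to 131 CPM in PLCγ2-deficient libraries, NK and innate lymphoid markers to 86.9 to 236 and 52.0 to 228 CPM, plasma cell markers to 1111 to 2476 and 541 to 2199 CPM, and stem and multipotent progenitor markers to 194 to 461 and 100 to 409 CPM. Within the plasma cell list Jchain stood at 487 to 2006 and 165 to 1836 CPM, and Prdm1 at 3.74 to 4.30 and 5.92 to 7.49 CPM. Erythroid markers summed to 79.7 to 301 and 63.1 to 173 CPM, and 0 members of these lists were called by edgeR or DESeq2.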
